A study of Homo sapiens with 14 samples.

Results

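Selenoproteins carry selenocysteine, an amino acid inserted at a UGA codon that would otherwise end translation. The recoding depends on the selenocysteine insertion sequence (SECIS), a stem-loop in the 3′ UTR of eukaryotic selenoprotein mRNAs. Its core begins with a quartet, usually AUGA, whose guanine forms a sheared pair with an adenine on the opposite strand, so that tandem G·A pairs stack at the foot of the upper helix. SECISBP2 recognises this core and brings in the elongation factor EEFSEC with the selenocysteine tRNA, and a run of adenines lies unpaired at the top of the helix.

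10 selenoprotein genes were chosen by name: GPX1, GPX4, TXNRD1, SELENOF, SELENOH, SELENOK, SELENOS, SELENOT, SELENOW and MSRB1. The profiles held scores for 8 of them, in 27 transcripts out of 20512 in all, and GPX1 and TXNRD1 are not analysed here. For each gene the transcript with the highest mean RPKM among those whose length equals the reference (GENCODE release 44, GRCh38) was taken, which gave 6 genes. GPX4, SELENOF and SELENOH had this transcript in all 4 profiles. SELENOK lacked icSHAPE in vitro, SELENOW was in the icLASER profiles alone, and SELENOT was in icSHAPE in vivo alone. SELENOS and MSRB1, and the coding transcript of SELENOK, differ in length from the reference and were placed on it by their own scores, as described under processing. All values of SELENOS and MSRB1 come from placed transcripts. For the other genes, placed transcripts are named as such where their values are given.

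The samples were K562 cells, an established human erythroleukemia line grown in culture. Intact cells (in vivo) or K562 RNA refolded outside cells (in vitro) were treated with NAI-N3 at 100 mM for 5 min (icSHAPE, 3 in vivo and 2 in vitro libraries) or with NAz-N3 and UV light for 10 min (icLASER, 2 libraries each). The controls were 3 DMSO-treated libraries for icSHAPE and 2 libraries without UV for icLASER. NAI-N3 acylates the 2′-hydroxyl of flexible nucleotides, and light-activated NAz-N3 marks the C8 position of solvent-exposed purines. The authors pooled the 14 libraries into 4 profiles, 1 for each reagent and condition, so every value below is 1 number with no replicate error and no test, and the number of reads behind a score is unknown. A score is the authors' enrichment over control at 1 nucleotide, from 0 to 1. The erythroid markers GATA1, KLF1, HBG1, HBG2, HBE1 and TFRC were scored and TAL1 was not, and neither the lymphoid markers CD3E and MS4A1 nor the hepatic markers ALB and APOA1 were.

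A SECIS core was found by sequence and predicted pairing in all 8 scored genes, and each lies in the 3′ UTR of the gene's MANE Select transcript, in its last exon. The 5′ strand of each core is shown because it holds the quartet and the apical adenines described below. The capitals mark the 5′ quartet and the apical AA, and every quartet is AUGA.
GPX4: AUGAcggccugccugcaAA
SELENOF: AUGAagacuacacagaAA
SELENOH: AUGAuggaacauggccAA
SELENOK: AUGAggucaugcugggAA
SELENOS: AUGAugucuuccuuaucAA
SELENOT: AUGAaggccuguacugAA
SELENOW: AUGAuaggaaggacugAA
MSRB1: AUGAuccgcucuggucAA
From the quartet through the 3′ GA, the cores run 36 nt in GPX4 (chr19:1106637-1106672, plus strand), 46 nt in SELENOF (chr1:86862824-86862869, minus), 37 nt in SELENOH (chr11:57742893-57742929, plus), 47 nt in SELENOK (chr3:53885371-53885417, minus), 47 nt in SELENOS (chr15:101272360-101272406, minus), 45 nt in SELENOT (chr3:150627698-150627742, plus), 48 nt in SELENOW (chr19:47784329-47784376, plus) and 45 nt in MSRB1 (chr16:1938579-1938623, minus). The predicted helix between the quartet and the 3′ GA held 9 to 15 pairs, with a free energy from -8.4 kcal/mol in SELENOH to -17.3 kcal/mol in MSRB1. The core of SELENOF needed 1 more unpaired base at an end of the helix than the search allowed, and was added after the sequences were seen. In SELENOK, SELENOT and SELENOW the scored transcript is not the coding one: GENCODE lists it as a nonsense-mediated decay transcript in SELENOK and as one with a retained intron in the other two.

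The guanine of the AUGA quartet had a lower icLASER score in vivo than in vitro in every member with both profiles. In GPX4, the glutathione peroxidase that reduces lipid hydroperoxides in membranes, the refolded RNA scored 1.00 and the cells 0.399. In SELENOH, a small nuclear redox protein, it was 1.00 and 0.338. SELENOF, which resides in the endoplasmic reticulum and binds the glucosyltransferase UGGT, had 0.428 in vitro and 0 in vivo. These are the 3 members with the highest RPKM, and in GPX4 the guanine was the only base of the core with an icLASER score of 0.5 or more in vitro.

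The less covered members had the same order. SELENOK, an endoplasmic reticulum membrane protein, had 0.171 in vitro and 0 in vivo at this guanine. SELENOW, a small thioredoxin-like protein, had 0.292 and 0. SELENOS, a membrane protein of endoplasmic-reticulum-associated degradation, had 0.618 and 0.325 on its placed transcript. Members with a zero in vivo are thus SELENOF, SELENOK and SELENOW, whereas GPX4, SELENOH and SELENOS kept scores above 0.3. MSRB1, a methionine sulfoxide reductase, was scored in vivo alone, at 0.45 on its placed transcript.

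The differences ranged from -0.66 to -0.17, and all 6 members passed a drop of 0.05, 4 of them with a core found by the search as fixed and a transcript of equal length. Among 4203 AUGA tetramers in the 3′ UTRs of other genes, 36.5% had an icLASER guanine lower in vivo by at least 0.05 and 34.8% had one higher by as much. Where the guanine scored above 0 in vitro, as it did in all 6 members, 42.9% of 3576 were lower. The mean over all 4203 was 0.427 in vitro and 0.415 in vivo. Against this background the members fell at percentiles 6.31 (SELENOH), 7.42 (GPX4), 12.2 (SELENOF), 17.4 (SELENOS), 17.4 (SELENOW) and 25.8 (SELENOK). No single member thus lies outside the spread of such sites, and the pattern rests on all 6 lying on the same side. The percentiles are among all 4203 sites, including those at 0 in vitro, which could not fall. GPX4 and SELENOH started at the upper limit of 1.00 and could not rise, so the ranks depend in part on the in vitro score. The residue was one of 9 conserved positions examined, and it was singled out after the values were seen. With scores assigned 1 nt upstream, none of the 4 was lower by 0.05.

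**Figure D1:**
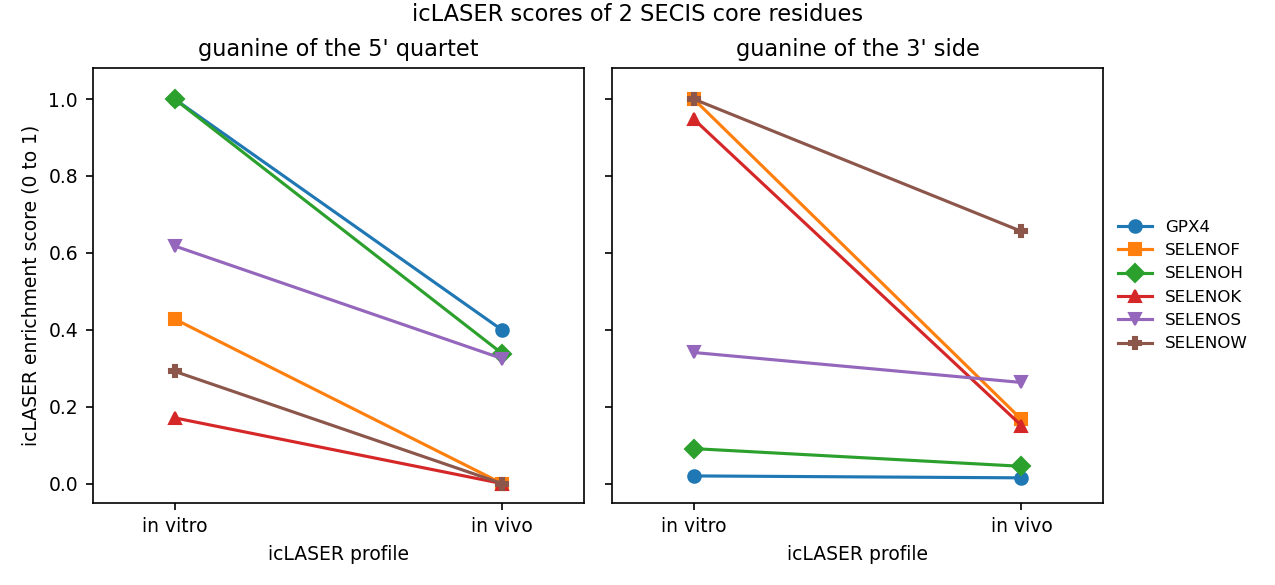
icLASER enrichment scores (vertical axis, 0 to 1) of the guanine of the 5′ AUGA quartet (left) and of the guanine of the 3′ GA (right) in vitro and in vivo, with 1 line per gene and no error bars because each profile is a single pooled value. All 6 lines go down in both panels, from 1.00 to 0.399 in GPX4 at the quartet and from 1.00 to 0.167 in SELENOF at the 3′ guanine, although GPX4 and SELENOH start near 0 on the right.

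The search places the guanine of the 3′ GA across the helix from the quartet. Its icLASER score was also lower in vivo in all 6 members. In SELENOF it was 1.00 in vitro and 0.167 in vivo, in SELENOK 0.948 and 0.151, and in SELENOW 1.00 and 0.656. SELENOS had 0.341 and 0.263. In SELENOH (0.091 and 0.045) and GPX4 (0.020 and 0.015) the base was hardly marked in either profile. Only 4 of the 6 thus passed a drop of 0.05, beside 32.7% of 53333 GA dinucleotides in other 3′ UTRs. That share includes sites at 0 in vitro, which could not fall, whereas all 6 members scored above 0. The shares of sites above 0, or lower by any amount, were not computed. The members thus differ in which of the 2 placed guanines was marked in vitro. GPX4 and SELENOH were marked at the quartet and not at the placed 3′ guanine. SELENOK and SELENOW were marked mostly at the 3′ guanine, and SELENOF and SELENOS at both. In GPX4 and SELENOH the search left 14 and 16 nt between the apical AA and the 3′ NGA (any base, then GA). In the other members with both profiles it left 25 to 27 nt. Whether the placed guanine of GPX4 and SELENOH is the one opposite the quartet was not tested.

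In icSHAPE, which had both conditions for GPX4, SELENOF and SELENOH alone, the quartet gave no common direction at its guanine. The scores were 0.289 in vitro and 0.328 in vivo in GPX4, 0 in both in SELENOF, and 0.970 and 0.235 in SELENOH. Only SELENOH was lower by at least 0.05, 1 of 3, and none was higher by as much, beside 22.5% lower and 40.4% higher among AUGA guanines in other 3′ UTRs. The guanine of the 3′ GA was lower by 0.05 in 1 of 3, SELENOF (0.406 and 0.156), beside 19.6% of GA dinucleotides. The first adenine of the quartet was lower in vivo in all 3, from 0.263 to 0.066 in GPX4, from 0.515 to 0.041 in SELENOF and from 0.276 to 0.172 in SELENOH. All 3 passed a drop of 0.05, beside 22.4% of first adenines of AUGA in other 3′ UTRs and 52.2% of the 1403 that scored above 0 in vitro, as the 3 members did. Among the 7 members scored by icSHAPE in vivo, the quartet guanine was at 0 in SELENOF, SELENOK, SELENOS and SELENOT. Of all scored positions in these transcripts, 26.4%, 55.0%, 54.4% and 74.6% were at 0 in the same order. The share of AUGA guanines at 0 in other 3′ UTRs was not computed, and their median in vivo was 0.105.

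Other scored transcripts with the same core gave the same icLASER order at the quartet guanine, although transcripts of 1 gene share most of their reads and do not count as replicates. In GPX4 the MANE Select transcript, placed by its scores, had 1.00 in vitro and 0.264 in vivo, and a transcript with a retained intron had 1.00 and 0.301. The 3 further SELENOH transcripts, of which the MANE Select one was placed, had 0.848 to 1.00 in vitro and 0.2 to 0.289 in vivo. The MANE Select transcript of SELENOF, also placed, had 0.25 and 0. In icSHAPE the further transcripts of GPX4 disagreed, with 0.1 in vitro and 0.239 in vivo in one and 0.587 and 0.164 in the other, while those of SELENOH were each lower in vivo.

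The apical adenines were marked by icSHAPE in most members. In vivo, at least 1 of the 2 adenines scored 0.5 or more in 5 of 7 members, beside 26.7% of 81486 AA dinucleotides in other 3′ UTRs, and in vitro in 2 of 3 members, beside 22.4%. The score reached 1.00 in vivo in GPX4 and SELENOK at the first adenine and in SELENOF, SELENOH and MSRB1 at the second. SELENOS reached 0.447 and SELENOT 0.397. In vitro the highest apical score was 0.320 in GPX4, 1.00 in SELENOF and 0.783 in SELENOH. SELENOH had both adenines marked in vitro (0.742 and 0.783), but in vivo the first was at 0.051 and the second at 1.00. In icLASER the apical adenines reached 0.5 in 1 of 6 members in vitro (SELENOF, 0.535) and 1 of 7 in vivo (SELENOH, 0.730), beside 14.5% and 21.7% of AA dinucleotides.

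**Figure D2:**
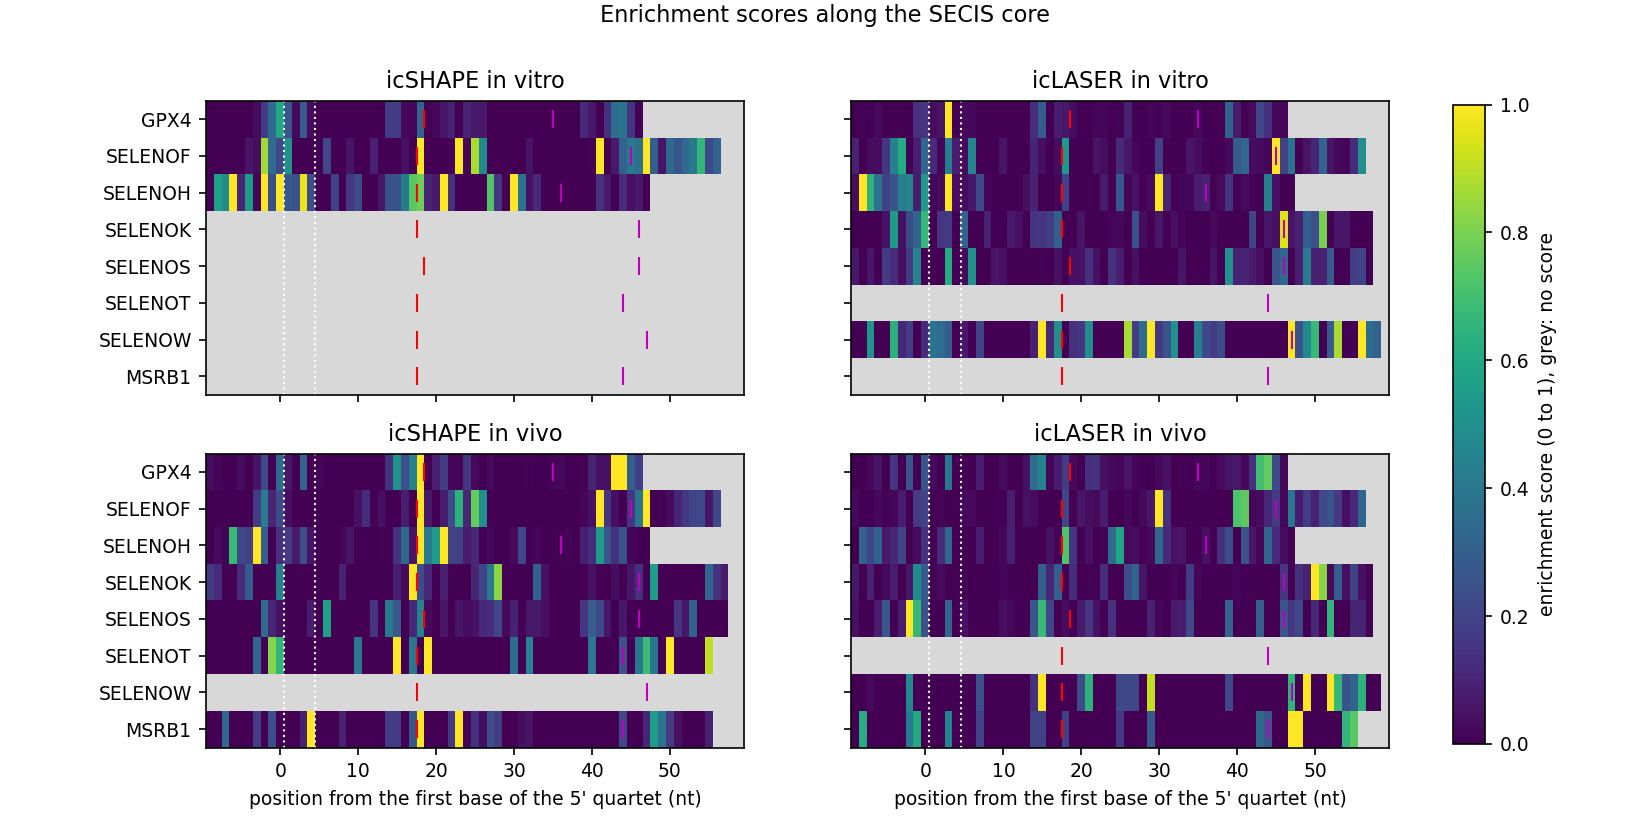
Heat maps of the enrichment score (colour, 0 to 1) along the SECIS core of each of 8 genes, with 10 nt on each side, in each of the 4 profiles, with grey where no score is shown. Dotted lines bound the quartet, red ticks mark the apical adenines and magenta ticks the 3′ guanine. In icSHAPE in vivo 5 of 7 genes are bright at the apical adenines, and the bright quartet guanine of GPX4 and SELENOH in icLASER in vitro is darker in vivo.

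Within the core, bases predicted to be paired had lower icSHAPE scores than those predicted to be unpaired. In vivo the paired mean was lower in 6 of 7 members, for example 0.026 against 0.286 in SELENOK and 0.028 against 0.284 in SELENOF. SELENOT was the exception, at 0.114 over paired and 0.079 over unpaired bases. In vitro it was lower in 3 of 3 members, with 0.011 against 0.310 in SELENOF, 0.168 against 0.315 in SELENOH and 0.024 against 0.072 in GPX4. SELENOH thus had the most reactive helix in vitro and also the weakest predicted one, and in vivo its paired mean was 0.019. For icLASER the paired mean was the lower one in 3 of 6 members in vitro and 4 of 7 in vivo, so the order differed between members. The scores of SELENOT, from 1 profile with an RPKM of 5.76, matched its sequence best at an offset of 356 nt, by a small margin, so its values may not sit on the bases named.

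The core was a quiet stretch of the transcript in icLASER in vivo, and the other profiles were mixed. Its mean icLASER score in vivo was lower than that of the 3′ UTR (or of the whole transcript, where no coding sequence is annotated) in all 7 members, and lower in 5 of 6 in vitro, in 6 of 7 for icSHAPE in vivo and in 2 of 3 for icSHAPE in vitro. The lowest was SELENOK, at 0.043 in vivo against 0.126 over the 3′ UTR of its nonsense-mediated decay transcript. It lay below nearly all of the 239 windows of the same length there (percentile 0.21). The placed MSRB1 had 0.051 against 0.128 (percentile 0.54), SELENOH 0.088 against 0.188 (percentile 7.92) and SELENOF 0.080 against 0.169 (percentile 9.04). In MSRB1, 36 of 45 core positions and 71.9% of scored 3′ UTR positions were at 0 in this profile, and the part of coverage was not tested. In GPX4 the core had 0.062 against 0.099 (percentile 29.5), since its whole 3′ UTR was quiet. Among 27348 windows of 40 nt in other 3′ UTRs, with a median of 0.132 and a mean of 0.153, the 7 cores lay between percentiles 7.66 and 32.6 in icLASER in vivo. In icSHAPE in vivo the 7 scored cores lay between percentiles 19.1 and 46.8 of such windows. In icLASER in vitro SELENOW lay at percentile 82.4 and the others between 15.6 and 40.1. In icSHAPE in vitro the percentiles were 90.9 in SELENOH, 64.9 in SELENOF and 11.8 in GPX4. Cores not below their 3′ UTR or transcript mean were SELENOH in icSHAPE in vitro, with 0.231 over the core and 0.152 over the 3′ UTR, SELENOW in icLASER in vitro, with 0.196 over the core and 0.151 over the transcript, and GPX4 in icSHAPE in vivo, where both means were 0.092. In icLASER in vitro SELENOH and GPX4 were below that mean, but at percentiles 62.9 and 53.3 of their own 3′ UTR windows.

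Averaged over the whole core, in vivo and in vitro scores were close in most members. The in vivo value minus the in vitro value in icLASER was -0.0986 in SELENOW, -0.0312 in SELENOK, -0.0153 in SELENOF and -0.00681 in SELENOH, against 0.00847 in GPX4 and 0.00383 in SELENOS. Only SELENOW was lower by 0.05, 1 of 6, and none was higher by as much, beside 20.8% lower and 34.4% higher among 40-nt windows in other 3′ UTRs. In icSHAPE the core gave -0.0967 in SELENOH, -0.0214 in SELENOF and 0.0437 in GPX4. Here 1 of 3 was lower by 0.05 and none higher, beside 13.7% and 34.8% of windows. Windows of the core's length along the same transcript had an SD of 0.0528 in SELENOH (icSHAPE) and 0.0708 in SELENOW (icLASER), and the core lay at percentiles 5.92 and 9.44 of them. Among windows of its 3′ UTR alone, the core of SELENOH lay at percentile 19.6. With the median in place of the mean, the difference was 0 in SELENOH and SELENOW. In GPX4 more bases of the core had a higher icLASER score in vivo than a lower one, 19 against 8, although its quartet guanine was lower.

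The selenocysteine codons are shown with 12 nt on each side, since the bases around a recoded UGA are part of what is compared. The capitals mark the codon.
GPX4: guggccucccagUGAggcaagaccgaa
SELENOF: gaaguuuguggaUGAaaauugggaagg
SELENOH: cauugcacuagcUGAcgcgucuauggg
SELENOK: auggcugguggaUGAggaagguaaaug
SELENOS: ucaucuggcggaUGAggcuaagaaucu
MSRB1: cagucccgauucUGAauauucagcagc
The codon lies at chr19:1105403-1105405 in GPX4, chr1:86880690-86880692 in SELENOF, chr11:57741816-57741818 in SELENOH, chr3:53885831-53885833 in SELENOK, chr15:101272777-101272779 in SELENOS and chr16:1940812-1940814 in MSRB1, and GENCODE annotates each as selenocysteine in the MANE Select transcript. It is the residue of the active site in GPX4 and MSRB1, and it lies near the end of the protein in SELENOK and SELENOS, where the stop codon begins 9 and 6 nt after the start of the selenocysteine codon.

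The scores of the codon differed widely between members and gave no common pattern. In GPX4 it was quiet in all 4 profiles, with a mean over its 3 bases of 0.069 in icSHAPE in vitro and 0.023 in vivo, and of 0.081 in icLASER in vitro and 0.026 in vivo. The 100 nt on each side had 0.230, 0.178, 0.268 and 0.197 in the same order. In SELENOH the guanine was marked in every profile, at 0.938 and 0.892 in icSHAPE and 1.00 in both icLASER profiles, while the uracil and adenine stayed at or below 0.125. SELENOF had single scored bases that changed place, with the adenine at 0.290 in icLASER in vitro and the uracil at 0.499 in vivo. A uracil is not a purine, and over the whole SELENOF transcript uracils averaged 0.126 and adenines 0.191 in icLASER in vivo.

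On the placed transcripts, the guanine of the SELENOS codon scored 1.00 in icLASER in vitro and 0.077 in vivo, while its uracil had 0.263 and 0.494. The SELENOK codon, scored in icLASER in vivo alone, had 0.056, 0.042 and 0 at its 3 bases. MSRB1 had the highest codon mean in icLASER in vivo, with 1.00, 1.00 and 0.522 at its bases and a mean of 0.841 against 0.097 in the flanks, at percentile 99.3 of 31484 out-of-frame UGA triplets in the coding sequences of other genes. That profile of MSRB1 was sparse, with 82.9% of its scored coding positions at 0 and an RPKM of 5.79, and the part of coverage in the codon value was not tested. The uracils of the SELENOS and MSRB1 codons are not purines, but their icLASER scores enter the codon means. Why they scored was not tested. In icSHAPE in vivo the same codon had 0.356, 0 and 0.552, with a mean of 0.303 at percentile 64.5, below the 0.353 of SELENOH, and that of SELENOS had a mean of 0.0657 at percentile 20.4. In icLASER in vivo the out-of-frame triplets averaged 0.146 at the uracil, 0.474 at the guanine and 0.129 at the adenine, and 963 UGA stop codons averaged 0.159, 0.503 and 0.141. GPX4, SELENOK, SELENOF and SELENOS thus had an icLASER guanine below both averages in vivo, and SELENOH and MSRB1 above both.

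Set against up to 100 nt on each side, the codon differed in direction between members. The flanks held 137 scored positions in SELENOH, whose codon starts at transcript position 44, and 200 in the other members. The difference of the codon minus that of the flanks was 0.00566 in GPX4, 0.0797 in SELENOF and -0.00337 in SELENOH in icSHAPE. In icLASER it was 0.0157, 0.104 and -0.0184 in the same order, and -0.253 in SELENOS. In icLASER the codon itself was lower in vivo by at least 0.05 in GPX4 and SELENOS and higher in SELENOF, 2 and 1 of 4, beside 44.3% and 27.6% of out-of-frame UGA triplets and 24.3% and 45% of UGA stop codons. In icSHAPE it was higher in SELENOF alone, 1 of 3, and lower in none, beside 47.1% and 25.9% of out-of-frame triplets and 50.6% and 17.4% of stop codons. In the GPX4 transcript GENCODE reads 2 further in-frame UGA triplets as selenocysteine, and the last of them, immediately before the UAG stop codon, was marked in all profiles, with a guanine at 1.00 in each and a mean from 0.446 to 0.605.

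Over the 3′ UTR in icLASER, 3 of 4 members lay below the median of all genes. In vivo minus in vitro, the mean score gave 0.0652 in SELENOH, 0.0433 in GPX4, 0.0170 in SELENOK and -0.0196 in SELENOF, and 0.0442 in the placed SELENOS. The value of SELENOK covers the region after the stop codon of its nonsense-mediated decay transcript, whereas the background uses protein-coding transcripts. Only SELENOH was past 0.05 either way, 1 of 4, beside 51.7% of 1473 genes (1.09% lower and 50.6% higher), whose median was 0.0505. SELENOF lay at percentile 6.08 of these genes, with 386 of its 792 scored positions lower in vivo and 327 higher. In icSHAPE the differences were 0.0418 in GPX4, 0.00719 in SELENOF and -0.0121 in SELENOH, none past 0.05, beside 27.2% of 1162 genes (2.75% lower and 24.4% higher) and a median of 0.0271. The 3′ UTR of GPX4 had the lowest mean of the members' 3′ UTRs in vitro, with 1.48% of its scored positions at 0.5 or more in icSHAPE and 1.97% in icLASER, against 10.3% of its coding sequence in icSHAPE. In SELENOF the shares were 12.2% and 11.2%.

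Over the coding sequence the icLASER differences were 0.0186 in GPX4, 0.0213 in SELENOF and 0.0155 in SELENOH, above those of at least 72.4% of genes. They were -0.0332 in the nonsense-mediated decay transcript of SELENOK and -0.0341 in the placed SELENOS. None was past 0.05 either way, beside 17.1% of genes (10.6% lower and 6.51% higher). In icSHAPE they were 0.00818 in GPX4, 0.0363 in SELENOF and 0.00723 in SELENOH, again with none past 0.05, beside 24.2% (1.8% lower and 22.4% higher).

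Along each transcript, the correlation of in vivo with in vitro scores lay on either side of the median of genes. The members ran from percentile 11.9 (SELENOS) to 80.8 (GPX4) in icLASER and from 42.7 (SELENOF) to 77.6 (SELENOH) in icSHAPE. This is a description across positions that share 1 library pool. Pearson's r in icLASER was 0.72 in GPX4, 0.64 in SELENOH, 0.52 in SELENOF and SELENOK, 0.48 in SELENOW and 0.40 in SELENOS, beside a median of 0.59 over 3697 genes. In icSHAPE it was 0.62 in GPX4, 0.63 in SELENOH and 0.49 in SELENOF, beside 0.51. SELENOS and SELENOW, which had the lowest r, also had the lowest RPKM of these, and the part of coverage in it was not tested. Positions reactive to both reagents (0.5 or more) were 3.13 times as frequent as the product of the separate shares in vivo and 3.37 times in vitro, beside 3.02 and 3.28 over other genes. Guanine had the highest mean icLASER score of the bases in every member, from 0.296 to 0.384 in vitro.

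The RPKM of the members did not differ 2-fold between conditions. RPKM in icSHAPE was 42.3 in vitro and 48.4 in vivo for GPX4, 28.2 and 31.4 for SELENOF, and 36.4 and 34.8 for SELENOH. In icLASER it was 42.0 and 53.7 for GPX4, 18.5 and 17.9 for SELENOF, 23.2 and 24.8 for SELENOH, 7.20 and 10.5 for SELENOK, 6.60 and 6.78 for SELENOS, and 6.32 and 6.42 for SELENOW. None of 3 in icSHAPE and none of 6 in icLASER was past 2-fold, beside 6.83% (0.777% higher and 6.05% lower) and 7.93% (3.06% higher and 4.87% lower) of genes. The lowest RPKM in the profiles was 5.01 to 5.13, and SELENOK, SELENOS, SELENOT, SELENOW and MSRB1 lay between 5.76 and 10.5. RPKM is scaled to library size, and the in vitro profiles come from refolded RNA, so RNA per cell was not measured.

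Among 15 other selenoprotein genes, SEPHS2, the selenophosphate synthetase that is itself a selenoprotein, was scored in all 4 profiles and SELENOM in icLASER in vivo alone. SEPHS2 had an RPKM of 15.6 in vitro and 18.6 in vivo in icSHAPE and of 14.2 and 12.5 in icLASER. Of 14 genes of selenocysteine insertion and selenium use, 8 were scored. SECISBP2, SECISBP2L, EEFSEC, SEPSECS, PSTK and SCLY were not scored. RPL30, NCL and EIF4A3, which are known to bind SECIS elements, were. In icLASER, 1 of 5 measured 3′ UTRs of this list was past 0.05 upward (SARS1, the synthetase that charges the selenocysteine tRNA with serine, 0.08) and 1 downward (ELAVL1, an RNA-binding protein of AU-rich elements, -0.07), beside 50.6% and 1.09% of genes. CELF1, an RNA-binding protein of GU-rich elements, had a coding sequence difference of -0.11, the only one of 5 past 0.05 either way, beside 17.1% of genes. NCL, nucleolin, had an RPKM of 98.2 in vitro and 48.5 in vivo in icLASER, the only gene of this list past 2-fold, beside 7.93% of genes. Of 14 related redox genes without selenocysteine, 10 were scored, and the icLASER 3′ UTR difference of TXN, TXN2, PRDX1 and PRDX2 (thioredoxins and peroxiredoxins) was 0.0501 to 0.0784, 4 of 4 past 0.05 upward, beside the same 50.6% of genes. GPX4 and SELENOF, at 0.0433 and -0.0196, lay below these 4, and SELENOH, at 0.0652, lay above TXN, TXN2 and PRDX2 and below PRDX1.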

How the data were processed

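The samples were intact K562 cells and refolded K562 RNA, probed by icSHAPE or icLASER. The authors trimmed reads with Trimmomatic, aligned them with Bowtie2 (per the labels, GRCh38; the methods name Ensembl release 88 transcripts) and ran the icSHAPE pipeline. The deposited profiles give an RPKM per transcript, normalized by the authors for length and library size, and an enrichment score per nucleotide. The labels give 1 control group for each reagent, which both conditions share, and do not say whether libraries came from separate cultures. Replicates were pooled, so no interval or p-value was computed and depth is unknown.

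Scores were used as deposited, with Python 3.11.15, numpy 2.4.6 and matplotlib 3.10.9. Sequences and coding regions came from GENCODE release 44. The SECIS core was searched in the 3′ UTR, or in the whole transcript for SELENOT and SELENOW, which have no annotated coding sequence. The pattern was RUGA, 9 to 14 nt, AA, 12 to 28 nt and NGA. The stretch between was folded with ViennaRNA 2.7.2 with AA unpaired. At least 8 pairs and a pair within 3 bases of each end were required, and the lowest free energy was taken. Every member is named, by its transcript of highest mean RPKM, and listed genes where past a limit. Regions were called past 0.05, RPKM past 2-fold, in regions with at least 50 positions. Transcripts of another length were placed by correlating scores with the mean score of each 3-mer over offsets to 500 nt, and kept where the best fit was at least 2 times the next. This step was added after the data were seen. In a check over offsets to 200 nt, of 300 equal-length transcripts of other genes 291 were placed at their true start, and 249 of the 250 with a clear best fit were. The check did not cover transcripts whose length differs from the reference, nor offsets beyond 200 nt. The search, placing and window differences were tested on simulated data. The members and gene lists were chosen with earlier results of these data known. Some genes of the cell type marker lists are not reported here.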

Additional observations from a re-analysis of the deposited data

How the results depend on the processing

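No paired analysis was possible because each deposited profile pools its libraries, and for the same reason no library was left out. Of 138 values recomputed, 108 stayed within the spread or within 1.5 times the count. Of 76 recomputed differences, 9 had the opposite sign, none of them from a value past 0.05. The counts cover 2 to 6 genes, so 1 gene moves them, and the cause was not tested for any change below. Alternatives that added SELENOF, added SELENOS or varied the quartet guanine were chosen after seeing the data.

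For the core mean, the number of members lower in vivo was 1 of 2 in icSHAPE and 3 of 4 in icLASER. With the median it was 0 and 1. In icSHAPE it was 2 with other transcripts and 2 of 3 with SELENOF. For the quartet guanine, the number lower by 0.05 in icLASER was 4 of 4, then 0 with scores 1 nt upstream and 2 of 2 with other transcripts, and in icSHAPE it was 1 of 2, then 2 with other transcripts. For the selenocysteine codon less its flanks, the number below 0 was 1 of 3 for both reagents. In icSHAPE it was 2 with the highest of the 3 bases and 2 with 50 nt flanks, and the median of 0.00566 became 0.0550 with scores 1 nt upstream -0.0883 with the highest base and -0.000690 with 50 nt flanks. In icLASER it was 2 with scores 1 nt upstream, 2 with the highest base and 2 of 4 with SELENOS, and the median of 0.0157 became -0.0190, -0.0200 and -0.00136. The core difference of GPX4 became -0.0171 in icSHAPE and -0.00213 in icLASER with other transcripts, and -0.0126 in icLASER over A and G alone.

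For the 3′ UTR, none of 3 was past the limit in icSHAPE, then 1 with a limit of 0.03 and 1 over A and G alone, and the median of 0.00719 became -0.0248 with each profile divided by its own mean. In icLASER 1 of 4 was past it, then 0 with the median, 2 with a limit of 0.03, 0 with 0.08 and 2 over A and G alone. The ratio of positions reactive to both reagents was 3.37 in vitro and 3.13 in vivo, then 2.24 and 2.14 from a score of 0.3, 5.04 and 4.58 from 0.8, and 1.79 and 1.06 with icSHAPE scores 1 nt downstream.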
